A study of Mus musculus with 16 samples.

Results

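The genes described here are 43 mouse genes of DNA replication and S phase, taken as a list of licensing, replication fork and nucleotide synthesis genes. All 43 were found by symbol among the 55291 genes of the deposited count table, and all 43 passed the filter on low counts that left 22749 genes. The list holds 5 genes of origin recognition and helicase loading, the 6 genes of the MCM2-7 helicase ring, 6 genes of helicase activation and 6 of the sliding clamp and its loader. It further holds 8 genes of the polymerases and primase, 5 of single-strand binding and flap joining, 5 of nucleotide synthesis and 2 regulators. Their transcripts were measured by bulk RNA-seq in bone-marrow LSK cells, stem and progenitor cells that lack lineage markers and carry c-Kit and Sca-1.

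The 16 libraries came from 16 C57BL/6 mice in 4 groups of 4. WT mice carried neither mutation. Asxl1Tg mice carried Asxl1Y588XTg, a transgene for a truncated form of the chromatin regulator Asxl1, and Srsf2P95H mice carried Srsf2P95H/+, a point mutation in 1 copy of a splicing factor gene. The double mutants (DM) carried both. The labels used here name neither the promoter of the transgene nor a Cre driver, and they give no age or treatment. The cells were enriched with beads and lysed as a population, so that a larger share of replicating cells and more replication RNA per cell cannot be told apart in any result below.

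Replication origins are marked in G1 by the origin recognition complex, on which Cdc6 and Cdt1 load the MCM2-7 ring as an inactive helicase. At the start of S phase Cdc45 and the GINS complex join the ring and activate it, and polymerases alpha, delta and epsilon copy the opened strands with the help of the PCNA clamp, RPA and enzymes that join Okazaki fragments. Many genes of this machinery are textbook targets of the E2F transcription factors, and haematopoietic stem cells are known to be mostly quiescent while the progenitors they give rise to divide actively.

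Expression is given as CPM, counts per megacount of library after TMM scaling, a correction for library composition. Total counts were 82.99 to 127.6 megacounts per library. Kit was at 699 to 1211 CPM and Cd34 at 738 to 1002 CPM in all libraries, whereas Ly6a, which encodes Sca-1, was at 23.2 to 54.3 CPM and the T cell gene Cd3e at no more than 0.266 CPM. WT 4 stood apart: the summed level of 12 B lineage genes was 170 CPM there and at most 65.2 CPM elsewhere, and that of 9 eosinophil genes was 1580 CPM against at most 486 CPM elsewhere. The summed level of 19 immediate-early genes was lowest in WT 4 (860.3 CPM) and highest in Srsf2P95H 2 (14958 CPM). The libraries with a high Xist level (1566 CPM or more, against 2.11 CPM or less) were DM 1, WT 1, Asxl1Tg 3 and the Srsf2P95H mice 2 and 3. No label gives a batch.

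Promoter sequences are shown first, since the 43 genes moved together between libraries and E2F factors are known to act at such promoters. RefSeq (GRCm38.p6) promoter entries, from 250 bases before to 50 bases after the annotated start, were matched by symbol for 36 of the 43 genes. They were searched on both strands for 4 E2F octamers, TTTGGCGC, TTTCGCGC, TTTCCCGC and TTTGCCGC. An octamer was present in 14 of the 36 promoters (38.9%) and in 704 of 27025 promoters of all genes (2.61%). There were 20 matches in the 14 promoters, 12 before and 8 after the start. The 14 genes were Orc1, Cdc6, Cdt1, Mcm3, Mcm5, Mcm6, Mcm7, Gins3, Rfc3, Pola1, Pold1, Pole2, Lig1 and Uhrf1. The 4 longer stretches before the start were chosen because they hold such letters in genes of the loading factors, the helicase ring and the primer-making polymerase, with the matched letters in capitals, 5′ to 3′ on the strand of the gene. They lie at chr11:98907991-98908150 on the plus strand for Cdc6, chr8:75109349-75109508 on the plus strand for Mcm5, chr1:128359706-128359865 on the minus strand for Mcm6 and chrX:93632156-93632315 on the minus strand for Pola1. A shorter window around the match of Gins3, at chr8:95633510-95633533 on the plus strand, is printed because Gins3 had the smallest adjusted p of the 43 genes in DM. All starts here are those of the RefSeq entries. The Cdc6 stretch and the Gins3 window lie within the GENCODE spans of these genes, which start at chr11:98907801 and chr8:95633453.
Cdc6: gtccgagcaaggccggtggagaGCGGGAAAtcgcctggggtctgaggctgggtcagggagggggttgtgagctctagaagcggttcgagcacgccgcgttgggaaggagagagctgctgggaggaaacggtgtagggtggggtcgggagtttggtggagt
Mcm5: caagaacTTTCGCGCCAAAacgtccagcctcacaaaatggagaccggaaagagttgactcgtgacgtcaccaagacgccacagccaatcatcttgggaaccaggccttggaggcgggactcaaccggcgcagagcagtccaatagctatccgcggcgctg
Mcm6: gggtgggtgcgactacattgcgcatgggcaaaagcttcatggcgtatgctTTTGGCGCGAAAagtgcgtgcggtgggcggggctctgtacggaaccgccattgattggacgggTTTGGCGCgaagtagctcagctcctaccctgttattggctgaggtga
Pola1: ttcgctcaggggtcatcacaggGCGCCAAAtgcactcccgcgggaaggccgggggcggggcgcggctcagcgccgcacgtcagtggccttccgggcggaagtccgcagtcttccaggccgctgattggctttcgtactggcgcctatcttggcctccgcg
Gins3: agtgcggcGCGGGAAAgcgagttt

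The Mcm6 promoter held 3 matches, at 110, 106 and 47 bases before the start, of which the first 2 overlap in 1 run of capitals. Mcm5 held 2 overlapping matches, at 153 and 149 bases before the start, and Cdc6 and Pola1 held 1 each, both 138 bases before it. The nucleotide synthesis genes that rose in DM, Dut and Tyms, had no octamer in their entries. Stretches before their RefSeq starts are printed for comparison, all in lower case, from chr2:125247402-125247481 on the plus strand and chr5:30073626-30073785 on the minus strand. The Dut stretch lies within the GENCODE span of Dut, which starts at chr2:125247190.
Dut: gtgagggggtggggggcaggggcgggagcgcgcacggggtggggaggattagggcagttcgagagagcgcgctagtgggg
Tyms: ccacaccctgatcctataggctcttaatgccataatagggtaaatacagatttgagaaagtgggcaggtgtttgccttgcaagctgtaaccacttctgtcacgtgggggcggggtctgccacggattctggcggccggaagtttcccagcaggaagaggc

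The 7-letter cores, which are the same octamers without their first T and so lie in every octamer, were found in 22 of the 36 promoters (61.1%) against 10.9% of all promoters. A CCAAT box was present in 23 of the 36 (63.9%, against 41.1%), and the CHR element TTTGAA, known from mitotic genes, in 5 (13.9%, against 20.2%). In DM against WT the median log2 fold change was 0.31 over the 14 genes with an octamer and 0.32 over the 22 without, and in Srsf2P95H it was 0.33 and 0.35. In Asxl1Tg the medians were 0.30 and 0.26. These counts describe letters in a window and no binding.

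The question of the 3 comparisons with WT is how each mutation alone, and both together, go with the replication genes. The level of all 43 genes was above WT in each mutant group, by about the same amount in the 3 groups. The median log2 fold change was 0.28 in Asxl1Tg (1.21-fold, range 0.03 to 0.43), 0.33 in Srsf2P95H (1.26-fold, range 0.08 to 0.53) and 0.31 in DM (1.24-fold, range 0.08 to 0.49), while the median over all genes tested was -0.04, -0.05 and -0.02. Over the 10709 genes with a mean of at least 5 CPM the median was 0.01, 0.08 and 0.09 in the same order. A log2 fold change above 0 was found for 44.7% of all genes in Asxl1Tg, 45% in Srsf2P95H and 47.6% in DM. The 3 comparisons share the same 4 WT libraries and are therefore not independent of each other. Scaling by library size alone shifted the median of all genes by -0.11 in Srsf2P95H and -0.10 in DM. Relative to that median the replication genes were at 0.39 and 0.34 under this scaling, against 0.38 and 0.33 under TMM, and Rfc1 then turned from 0.08 to -0.03 in Srsf2P95H and to -0.02 in DM.

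The adjusted test passed for few of these small changes. With edgeR's quasi-likelihood test at an adjusted p under 0.05, 6 of the 43 genes rose in DM (Mcm4, Gins3, Pola1, Rpa3, Tyms and Dut), where 4.65% of all genes tested rose and 7.79% of the 10709 genes with a mean of at least 5 CPM. In Asxl1Tg and in Srsf2P95H 0 of the 43 passed in edgeR, beside 1.12% and 0.264% of all genes (1.32% and 0.486% of those at 5 CPM or more). The smallest adjusted p there was 0.0568 for E2f1 in Asxl1Tg and 0.0575 for Pole2 in Srsf2P95H. At an unadjusted p under 0.05, 28 of the 43 were higher in Asxl1Tg (10.4% of all genes, 16.6% of those at 5 CPM or more), 38 in Srsf2P95H (14.2% and 26.9%) and 36 in DM (15.2% and 26.4%). None of the 43 was lower at that level in any of the 3, beside 11.1%, 11.1% and 15.4% of all genes. DESeq2 called 10, 20 and 15 of the 43 in Asxl1Tg, Srsf2P95H and DM (5.26%, 9.56% and 9.22% of the genes it adjusted), and limma-voom called 2, 12 and 22 (2.37%, 4.23% and 9.24%). Where no other tool is named below, rises, falls and calls are those of edgeR.

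**Figure D1:**
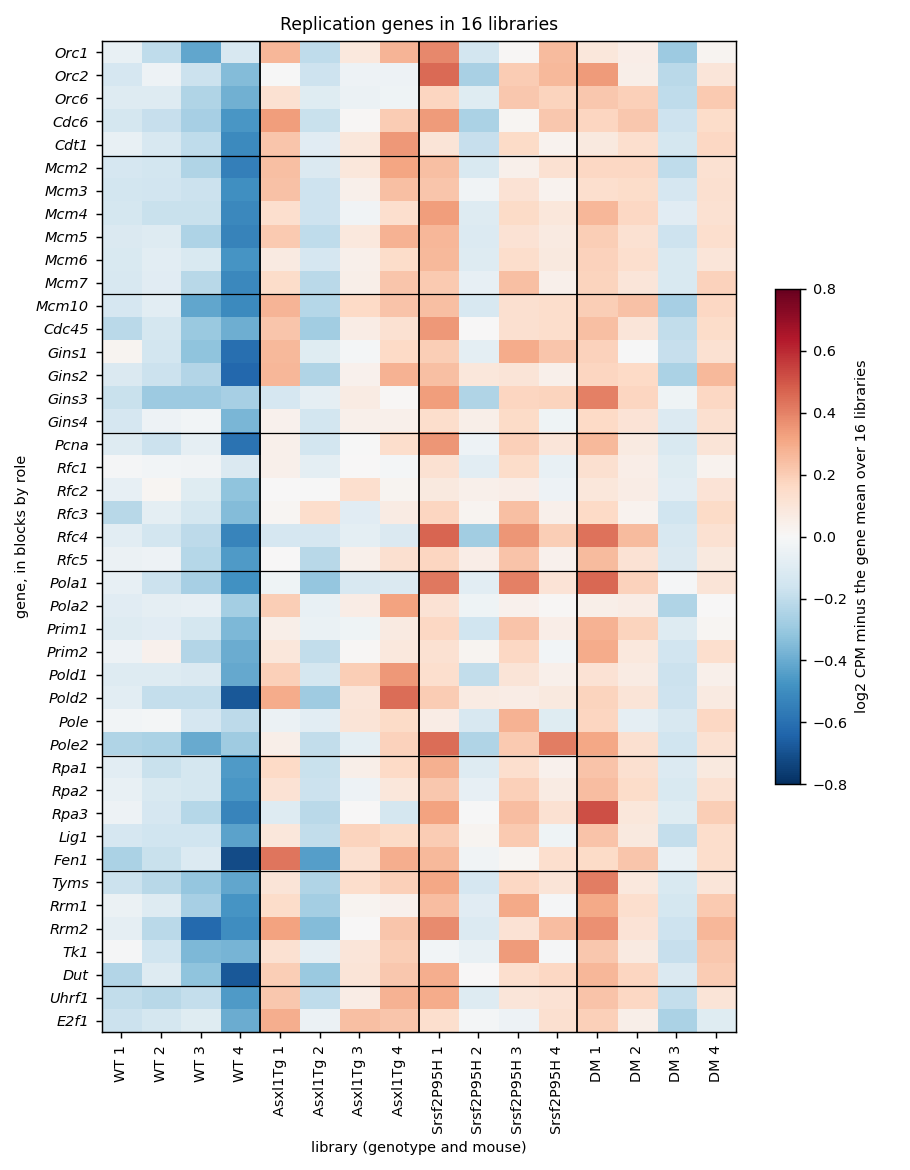
Log2 CPM of each of the 43 genes (rows, in blocks by role from origin recognition at the top to the regulators at the bottom) in each of the 16 libraries (columns), minus the mean of the gene over all libraries. WT 4 holds the lowest value of 39 of the 43 genes, and 33, 38 and 37 of the genes lie above their WT mean in Asxl1Tg 2, Srsf2P95H 2 and DM 3, against 42 or 43 in the other mutant libraries.

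The level of the 43 genes differed from library to library within each group. The summed CPM of the 43 genes was 6501, 6444, 6145 and 5107 in the WT mice, 7727, 6229.8, 7269.8 and 7921 in Asxl1Tg, 8312, 6639, 7875 and 7331 in Srsf2P95H and 8162, 7619, 6361 and 7659.6 in DM, with means of 6049 ± 647 CPM (SD, n = 4), 7287 ± 756, 7539 ± 722 and 7450.5 ± 767 CPM in the same order. Asxl1Tg 2 and DM 3 lay among WT 1 to WT 3, Srsf2P95H 2 lay just above WT 1, and the other 9 mutant libraries lay above them all. WT 4 held the lowest value of 39 of the 43 genes, WT 3 of 3 and WT 2 of 1. The highest values fell to Srsf2P95H 1 (13 genes), DM 1 (11), Asxl1Tg 4 (8), Srsf2P95H 3 (7), Asxl1Tg 1 (3) and Asxl1Tg 3 (1). The median SD of a replication gene between mice of 1 group was 0.15 to 0.17 log2 units in the 4 groups, against 0.12 to 0.14 over all genes at 5 CPM or more.

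Single libraries decided the count of calls, though not the direction. In DM it went from 6 to 29 (6.2% of all genes rising) without DM 3, to 11 without Srsf2P95H 2 (5.36%), to 10 without Asxl1Tg 2 (5.84%) and to 8 without WT 1 (5.92%). It went to 1 without WT 2 (2.65%) and to 0 without WT 3, WT 4, DM 1, DM 2 or DM 4 (1.64%, 2.01%, 1.63%, 1.55% and 1.91%), while leaving out any of the other libraries gave 4 to 6. In Srsf2P95H it went from 0 to 18 without Srsf2P95H 2 (4.25%), to 9 without WT 1 (4.53%) and to 8 without Asxl1Tg 2 (3.11%). In Asxl1Tg it went from 0 to 19 without Asxl1Tg 2 (5.59%) and to 1 without DM 1 or DM 3 (1.08% and 0.939%). All 43 genes stayed above WT in each mutant group with every library left out in turn, and the medians ran from 0.22 to 0.35 in Asxl1Tg, 0.26 to 0.40 in Srsf2P95H and 0.23 to 0.38 in DM. The lowest of these medians in each group was that without WT 4. In the libraries with a low Xist level alone, 0 genes were called in Asxl1Tg, 10 in Srsf2P95H and 0 in DM in edgeR (1.65%, 3.34% and 2.44% of all genes rising), at medians of 0.33, 0.46 and 0.32. That subset leaves out WT 1, Asxl1Tg 3 and DM 1. Of Srsf2P95H it keeps only mice 1 and 4, without Srsf2P95H 2, the lowest of its group in summed CPM of the replication genes.

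Other transcripts moved across the same libraries. The 12 genes of granulocyte-monocyte progenitors, a proliferating myeloid stage next to the LSK gate, had median log2 fold changes of 0.41, 0.72 and 0.54 in Asxl1Tg, Srsf2P95H and DM, with 10, 12 and 12 of 12 above WT and Gfi1 alone past the adjusted test, in DM (0.46 ± 0.13, edgeR adjusted p = 0.0445). Their summed CPM was 4870.5, 4182, 1438 and 2201 in the WT mice, 5941, 2595, 5037 and 4500.4 in Asxl1Tg, 4851, 6055, 6626 and 5929 in Srsf2P95H and 5894, 6366, 4107 and 7374 in DM. With the mean log2 CPM of this list as a covariate, 0 of the 43 replication genes were called in edgeR in any of the 3 comparisons, beside 0.514%, 0% and 0.453% of all genes, and the medians were 0.22, 0.21 and 0.22. All 12 B lineage genes were below WT in each mutant group (median -1.71, -1.66 and -1.78), and all 9 eosinophil genes were in Asxl1Tg and 8 of 9 in the others, with the high WT 4 values given above. Immediate-early genes had medians of -0.55, -0.06 and -1.32. The 15 T and natural killer cell genes tested had medians of -0.68, -0.61 and -1.29. In DM Lck, Zap70 and Ncr1 of that list fell and Nkg7 rose, while its summed level was 113 to 153 CPM in WT and 115 to 185 CPM in DM. The 20 LSK and stem cell genes had medians of -0.09, 0.02 and 0.11, with 7, 11 and 13 above WT. Among them Hoxb5 rose in Asxl1Tg and in DM (1.35 ± 0.23, edgeR adjusted p = 0.00432), and Esam and Slamf1 rose in DM. Flt3, a gene of multipotent progenitors, fell in DM (-0.95 ± 0.23, edgeR adjusted p = 0.0239). Monocyte and macrophage genes had medians of 0.59, 0.46 and 0.48 with 0 of 10 called, and 1, 4 and 3 higher at an unadjusted p under 0.05 in edgeR. At that level 10.4%, 14.2% and 15.2% of all genes were higher, and 16.6%, 26.9% and 26.4% of those at 5 CPM or more. Lists of mature neutrophils, of erythroid and megakaryocyte genes and of B lineage genes each had 1 call in DM (Cxcr2 and Itga2b higher, Bank1 lower). Over all genes 4.65% rose and 4.73% fell in DM, and 1.12% rose in Asxl1Tg. The neutrophil list had medians of 0.44, 0.77 and 0.15 in Asxl1Tg, Srsf2P95H and DM, with 8, 7 and 8 of 12 genes above WT. Mast cell and basophil genes had medians of -0.98, -0.47 and -0.47, with 1, 2 and 3 of the 9 tested above WT and 0 called. For the erythroid and megakaryocyte list the medians were 0.03, -0.17 and -0.05, with 8, 5 and 7 of 15 above WT, so that Itga2b does not stand for its list. These genes are named after their values were seen. The part of these transcripts in the replication results was not tested, since the covariate and the left-out libraries cannot separate it from genotype.

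**Figure D2:**
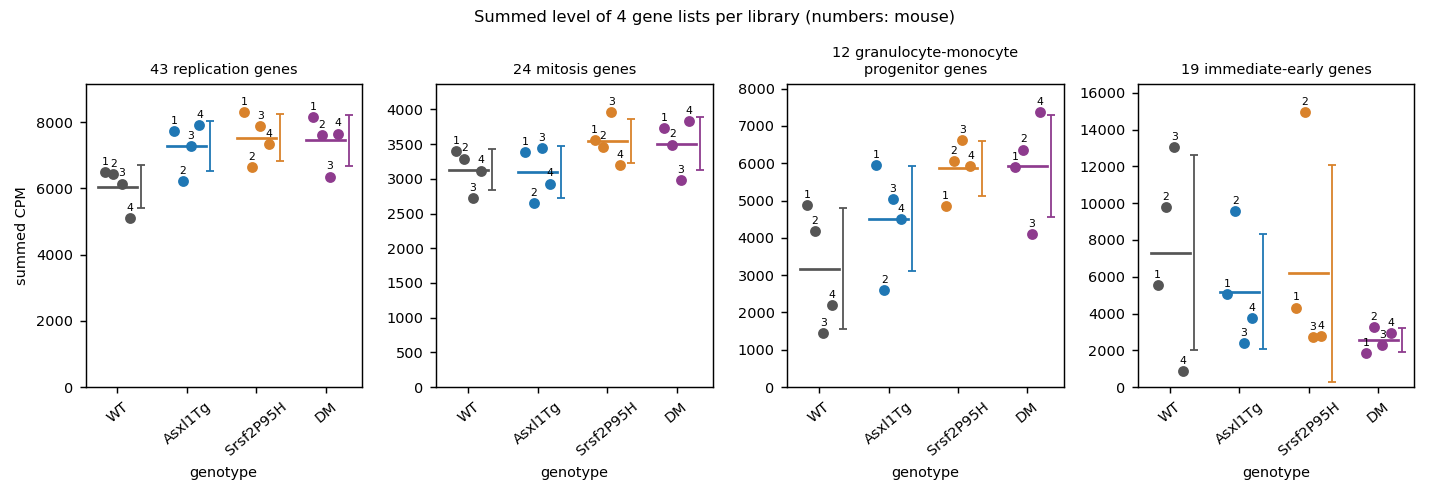
Summed CPM per library (points, numbered by mouse) of the 43 replication genes and of 3 other lists, by genotype, with the group mean (line) and SD (bar, n = 4). The replication genes of Asxl1Tg 2 and DM 3 lie among those of WT 1 to WT 3, Srsf2P95H 2 lies just above, and WT 4 lies lowest at 5107 CPM.

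Licensing genes were above WT in all 3 mutant groups without a call in edgeR, at medians of 0.31 (Asxl1Tg), 0.33 (Srsf2P95H) and 0.28 (DM) over the 5 genes. DESeq2 called Cdt1 in Asxl1Tg and Orc6 in Srsf2P95H and DM, and limma-voom called Orc6 and Cdc6 in DM. Orc1, the largest subunit of the origin recognition complex, was at 16.3, 14.8, 12.8 and 15.6 CPM in the WT mice, 20.4, 14.8, 18.1 and 20.5 in Asxl1Tg, 22.2, 15.3, 17.1 and 20.3 in Srsf2P95H and 18.1, 17.6, 13.9 and 17.3 in DM. All 3 mutant groups overlapped WT, since WT 1 reached 16.3 CPM and each mutant group held a library below that. Its log2 fold changes were 0.31 ± 0.13 in Asxl1Tg, 0.33 ± 0.13 in Srsf2P95H and 0.17 ± 0.13 in DM (edgeR adjusted p = 0.193, 0.137 and 0.412). Cdt1, the factor that brings the MCM ring to the origin, was at 116, 110.1, 105 and 84.7 CPM in the WT mice, 141, 113, 128 and 154 in Asxl1Tg, 129.6, 106, 134 and 123 in Srsf2P95H and 127, 132, 109 and 135 in DM. WT 4 was lowest and Asxl1Tg 4 highest, and each mutant group had 1 library within the WT range. Fold changes of Cdt1 on the log2 scale were 0.37 ± 0.11 in Asxl1Tg, 0.25 ± 0.11 in Srsf2P95H and 0.28 ± 0.11 in DM (edgeR adjusted p = 0.0821, 0.173 and 0.102). Cdc6, its partner in loading, had 0.36, 0.35 and 0.36, and the origin recognition subunits Orc2 and Orc6 had 0.11, 0.36 and 0.25 and 0.19, 0.33 and 0.32 in the same order of groups, with 29.8% of the exon bases of Orc2 overlapping Nif3l1.

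All 6 subunits of the MCM2-7 ring were above WT in each mutant group at an unadjusted p under 0.05 in edgeR, which called Mcm4 alone, in DM. DESeq2 called Mcm2 and Mcm3 in Asxl1Tg and Mcm3, Mcm4 and Mcm7 in Srsf2P95H and in DM. The calls of limma-voom were Mcm2 in Asxl1Tg, Mcm4 in Srsf2P95H and all ring subunits but Mcm5 in DM. Mcm4 (chr16:15623897-15637400, minus strand, GENCODE M21 on GRCm38) was at 270.3, 264, 264 and 209 CPM in the WT mice, 328, 266, 292 and 327 in Asxl1Tg, 376, 278, 331 and 317 in Srsf2P95H and 359, 335, 279.8 and 324 in DM. Every Srsf2P95H and DM library lay above every WT library, whereas Asxl1Tg 2 lay among WT 1 to WT 3. Against WT the log2 fold changes were 0.27 ± 0.11 in Asxl1Tg, 0.37 ± 0.11 in Srsf2P95H and 0.37 ± 0.11 in DM, with edgeR adjusted p of 0.162, 0.0668 and 0.0438. Mcm2, a subunit that also binds histones, was at 341, 338, 317 and 256 CPM in the WT mice, 443, 345, 398 and 464 in Asxl1Tg, 443, 344, 385 and 408 in Srsf2P95H and 419.6, 419, 325 and 406 in DM. Here all Asxl1Tg and all Srsf2P95H libraries lay above WT, by a narrow margin for Asxl1Tg 2 and Srsf2P95H 2, and DM 3 lay within WT. The changes of Mcm2 against WT in log2 units were 0.40 ± 0.12 in Asxl1Tg, 0.33 ± 0.12 in Srsf2P95H and 0.33 ± 0.12 in DM (edgeR adjusted p = 0.0766, 0.0951 and 0.0758). Mcm6 was at 633, 649.5, 633 and 496 CPM in the WT mice, 722, 625, 708 and 759.7 in Asxl1Tg, 824, 640.0, 756 and 725 in Srsf2P95H and 783, 755, 631 and 735 in DM. WT 4 lay far below WT 1 to WT 3, and 1 library of each mutant group lay near them. In log2 units its fold changes were 0.22 ± 0.10 in Asxl1Tg, 0.29 ± 0.10 in Srsf2P95H and 0.27 ± 0.10 in DM (edgeR adjusted p = 0.211, 0.0979 and 0.0907).

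Of the other ring subunits, Mcm3 had log2 fold changes of 0.33, 0.32 and 0.31, Mcm5 of 0.34, 0.33 and 0.32 and Mcm7 of 0.29, 0.34 and 0.32 in Asxl1Tg, Srsf2P95H and DM. The proportions of the subunits differed little. Per kilobase of exon, Mcm6 made up 24.8 ± 0.394% (SD, n = 4) of the ring transcripts of WT mice, 23.7 ± 0.955% of those of Asxl1Tg, 24.2 ± 0.218% of Srsf2P95H and 24.1 ± 0.322% of DM. For Mcm2 the shares were 8.64 ± 0.123%, 9.26 ± 0.162%, 8.70 ± 0.399% and 8.73 ± 0.24% in the same order. The share of Mcm2 in Asxl1Tg was thus above that in WT by more than the SD of either group. By this measure Mcm5 in Asxl1Tg (16.6% against 16.1%) and Mcm4 in DM were also above WT, and Mcm6 was below WT in each mutant group. Mcm4 ranged from 13.2% (Asxl1Tg) through 13.5% (WT) and 13.9% (Srsf2P95H) to 14.0% (DM).

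Of the helicase activators, edgeR called Gins3 in DM and none of the other 5. DESeq2 also called Mcm10 in Asxl1Tg, Cdc45, Gins1, Gins2 and Gins3 in Srsf2P95H and Cdc45 in DM, and limma-voom called Cdc45 and Gins3 in Srsf2P95H and Cdc45 and Gins2 beside Gins3 in DM. Gins3 (chr8:95633453-95645060, plus strand), a GINS subunit, was at 17, 15.7, 15.7 and 16 CPM in the WT mice, 17.4, 18.3, 20.0 and 19.3 in Asxl1Tg, 24.2, 16.3, 21.6 and 21.7 in Srsf2P95H and 25.3, 21.6, 18.7 and 21.5 in DM. All Asxl1Tg and all DM libraries lay above the highest WT library, and Srsf2P95H 2 lay among the WT mice. Log2 fold changes of Gins3 were 0.22 ± 0.11 in Asxl1Tg, 0.38 ± 0.11 in Srsf2P95H and 0.44 ± 0.11 in DM, and the DM change had the smallest edgeR adjusted p of all 43 genes in that comparison, 0.0273. Cdc45, which joins GINS and MCM in the active helicase, was at 46.3, 48.6, 43.7 and 41 CPM in the WT mice, 62.6, 44.2, 55.9 and 58.4 in Asxl1Tg, 68.3, 53.8, 58.6 and 59.2 in Srsf2P95H and 63.4, 57.3, 46.9 and 59.5 in DM. Each Srsf2P95H library lay above WT, and Asxl1Tg 2 and DM 3 lay within it. Its log2 fold changes were 0.30 ± 0.11 in Asxl1Tg, 0.42 ± 0.11 in Srsf2P95H and 0.34 ± 0.11 in DM (edgeR adjusted p = 0.131, 0.058 and 0.0589). Gins1 was at 25.7, 23, 20.3 and 16.7 CPM in the WT mice, 30.3, 23.7, 25.1 and 28.3 in Asxl1Tg, 29.1, 24, 31.2 and 29.6 in Srsf2P95H and 28.8, 25.3, 22.3 and 27.7 in DM. WT 1 lay above DM 2, and each mutant group overlapped WT. Fold changes of Gins1 on the log2 scale were 0.33 ± 0.13 in Asxl1Tg, 0.41 ± 0.13 in Srsf2P95H and 0.28 ± 0.13 in DM (edgeR adjusted p = 0.152, 0.0768 and 0.147).

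Gins4, per exon length the most abundant of the helicase activators in WT, was at 38.8, 41.4, 41.9 and 33.1 CPM in the WT mice, 43.6, 38.5, 43.9 and 43.9 in Asxl1Tg, 47.1, 44, 47.4 and 41.5 in Srsf2P95H and 47.7, 46.1, 39.5 and 46.6 in DM. Each mutant group held 1 library within the WT range, and the log2 fold changes were 0.13 ± 0.08 in Asxl1Tg, 0.21 ± 0.08 in Srsf2P95H and 0.21 ± 0.08 in DM (edgeR adjusted p = 0.396, 0.131 and 0.106). Mcm10, which helps to start unwinding, had 0.40, 0.38 and 0.37. Gins2 had 0.37, 0.39 and 0.37, but 67.3% of its exon bases overlap Gse1, so that its counts are uncertain.

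The clamp PCNA and its loader had no call in edgeR, while DESeq2 and limma-voom both called Pcna, Rfc3 and Rfc4 in Srsf2P95H and Rfc4 in DM, and DESeq2 also Rfc5 in Srsf2P95H. Pcna, the ring that holds the polymerases on DNA, was at 322, 307, 329 and 229 CPM in the WT mice, 356, 313, 345 and 382 in Asxl1Tg, 441, 336, 396 and 371 in Srsf2P95H and 414, 364, 318 and 372 in DM. The Srsf2P95H libraries were all above WT, and 1 Asxl1Tg and 1 DM library lay within it. Against WT the log2 fold changes were 0.23 ± 0.11 in Asxl1Tg, 0.38 ± 0.11 in Srsf2P95H and 0.31 ± 0.11 in DM (edgeR adjusted p = 0.247, 0.0719 and 0.0878), and reads of the Pcna pseudogenes may share its counts. Rfc4, a small loader subunit, was at 33.4, 32, 30.7 and 24.6 CPM in the WT mice, 32.3, 32.2, 33.6 and 32.7 in Asxl1Tg, 49, 29.2, 45.2 and 40.6 in Srsf2P95H and 48, 42.2, 32.5 and 38.6 in DM. The 4 Asxl1Tg libraries lay between 32.2 and 33.6 CPM, at the level of WT 1, while 3 libraries of Srsf2P95H and 3 of DM lay at 38.6 CPM or more. The changes of Rfc4 against WT in log2 units were 0.12 ± 0.14 in Asxl1Tg, 0.44 ± 0.14 in Srsf2P95H and 0.42 ± 0.14 in DM (edgeR adjusted p = 0.675, 0.0809 and 0.0659). Rfc1, the large loader subunit, had the smallest changes of all 43 genes (0.03, 0.08 and 0.08), and Rfc2 had 0.15, 0.15 and 0.16. The remaining loader subunits Rfc3 and Rfc5 had 0.23, 0.32 and 0.24 and 0.18, 0.31 and 0.27.

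Among the polymerases, edgeR called Pola1 in DM. DESeq2 and limma-voom both called Pola1 and Pole2 in Srsf2P95H and in DM, and DESeq2 called Pola2, Pold1 and Pold2 in Asxl1Tg. Pola1 (chrX:93304767-93632155, minus strand), the catalytic subunit of the primer-making polymerase alpha, was at 210.5, 195, 183 and 157 CPM in the WT mice, 215, 178, 202 and 203 in Asxl1Tg, 294, 208, 291 and 237 in Srsf2P95H and 303, 250.1, 219 and 236 in DM. All DM libraries lay above WT, Srsf2P95H 2 lay just within it, and the Asxl1Tg libraries, at 178 to 215 CPM, lay near WT 1 to WT 3. In log2 units its fold changes were 0.10 ± 0.12 in Asxl1Tg, 0.47 ± 0.12 in Srsf2P95H and 0.43 ± 0.12 in DM (edgeR adjusted p = 0.686, 0.058 and 0.0369). Pola2, its regulatory subunit, was at 96.7, 97.7, 98.2 and 85.2 CPM in the WT mice, 118, 98.6, 107 and 128 in Asxl1Tg, 111, 100.4, 105 and 104 in Srsf2P95H and 106, 107, 87.2 and 103 in DM. The order of the groups was another here: all Asxl1Tg and Srsf2P95H libraries lay above WT, while DM 3 lay near WT 4. Log2 fold changes of Pola2 were 0.26 ± 0.08 in Asxl1Tg, 0.16 ± 0.08 in Srsf2P95H and 0.10 ± 0.08 in DM (edgeR adjusted p = 0.101, 0.263 and 0.462).

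Pole2, an accessory subunit of polymerase epsilon, the leading-strand enzyme, was at 20.5, 20.4, 18.4 and 20.0 CPM in the WT mice, 25.1, 21.2, 23.1 and 27.7 in Asxl1Tg, 33.1, 20.5, 28.2 and 32.3 in Srsf2P95H and 30.1, 26.5, 21.8 and 26.4 in DM. All Asxl1Tg and DM libraries lay above WT, and Srsf2P95H 2 overlapped it although Srsf2P95H 1 and 4 were the highest of all. Its log2 fold changes were 0.29 ± 0.13 in Asxl1Tg, 0.53 ± 0.13 in Srsf2P95H and 0.40 ± 0.13 in DM (edgeR adjusted p = 0.217, 0.0575 and 0.0631). Pold2, an accessory subunit of the lagging-strand polymerase delta, was at 71.9, 66.9, 67 and 47.8 CPM in the WT mice, 93.9, 62.6, 81.8 and 104 in Asxl1Tg, 87.8, 79.8, 79.5 and 80.7 in Srsf2P95H and 86.3, 81.9, 68.2 and 80.4 in DM. All Srsf2P95H libraries lay above WT, and Asxl1Tg held both the highest mutant value and 1 value below WT 3. Fold changes of Pold2 on the log2 scale were 0.43 ± 0.14 in Asxl1Tg, 0.37 ± 0.14 in Srsf2P95H and 0.32 ± 0.14 in DM (edgeR adjusted p = 0.0953, 0.113 and 0.129). The catalytic subunit gene Pole had 0.13, 0.13 and 0.13, and the catalytic subunit of polymerase delta, Pold1, had 0.33, 0.20 and 0.19. The primase subunits Prim1 and Prim2 had 0.18, 0.25 and 0.27 and 0.15, 0.22 and 0.25.

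Of the genes that protect and join the new strands, edgeR called Rpa3 in DM. DESeq2 called Rpa3 in Srsf2P95H and DM and Lig1 in Srsf2P95H, and limma-voom called Rpa1, Rpa2, Rpa3 and Lig1 in DM. Rpa3 (chr6:8255936-8259173, minus strand), the smallest subunit of the single-strand binding complex, was at 24.5, 23, 21.5 and 17.5 CPM in the WT mice, 23.5, 21.7, 25.2 and 22.8 in Asxl1Tg, 31.5, 25.1, 29.9 and 27.4 in Srsf2P95H and 36, 26.9, 23.5 and 29 in DM. Each Srsf2P95H library lay above WT, DM 3 lay within it and DM 1 was the highest of all, while Asxl1Tg lay at 21.7 to 25.2 CPM, near WT 1 to WT 3. Against WT the log2 fold changes were 0.11 ± 0.12 in Asxl1Tg, 0.40 ± 0.12 in Srsf2P95H and 0.42 ± 0.12 in DM (edgeR adjusted p = 0.652, 0.0768 and 0.0457). Lig1, the ligase that seals Okazaki fragments, was at 244, 239, 239 and 199 CPM in the WT mice, 285, 233, 302 and 297 in Asxl1Tg, 308, 272, 309 and 261 in Srsf2P95H and 314, 282, 234 and 295 in DM. The Srsf2P95H libraries were all above WT, and Asxl1Tg 2 and DM 3 lay below WT 2 and WT 3. The changes of Lig1 against WT in log2 units were 0.28 ± 0.10 in Asxl1Tg, 0.32 ± 0.10 in Srsf2P95H and 0.29 ± 0.10 in DM (edgeR adjusted p = 0.134, 0.0819 and 0.078). The larger subunits of the binding complex, Rpa1 and Rpa2, had 0.26, 0.30 and 0.29 and 0.19, 0.29 and 0.29. Fen1, the flap nuclease, had 0.43, 0.40 and 0.41, on counts that are uncertain because 84.2% of its exon bases overlap other genes.

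Nucleotide synthesis held 2 of the 6 genes called by edgeR and the largest fold change in DM. DESeq2 and limma-voom both called Tyms and Dut in Srsf2P95H and in DM and Rrm1 in DM, and DESeq2 also called Dut in Asxl1Tg. Tyms (chr5:30058202-30073617, minus strand), which makes thymidylate, was at 76.7, 74.1, 69.7 and 64.9 CPM in the WT mice, 92.7, 73.3, 95.3 and 98.6 in Asxl1Tg, 107, 78.9, 97.1 and 92.9 in Srsf2P95H and 115, 91.8, 79.4 and 92.6 in DM. All Srsf2P95H and DM libraries lay above WT, and Asxl1Tg 2 lay within it. In log2 units its fold changes were 0.33 ± 0.12 in Asxl1Tg, 0.40 ± 0.12 in Srsf2P95H and 0.41 ± 0.12 in DM (edgeR adjusted p = 0.115, 0.0679 and 0.0389). Reads of the pseudogene Tyms-ps may share the counts of Tyms. Dut (chr2:125247190-125258608, plus strand), which removes dUTP before it can enter DNA, was at 124, 136, 117 and 91.3 CPM in the WT mice, 168, 119, 157 and 169 in Asxl1Tg, 178, 146, 160.3 and 164 in Srsf2P95H and 175, 164, 135 and 168 in DM. All Srsf2P95H libraries lay above WT, DM 3 lay just below WT 2, and Asxl1Tg 2 lay near WT 3. Log2 fold changes of Dut were 0.39 ± 0.13 in Asxl1Tg, 0.47 ± 0.13 in Srsf2P95H and 0.46 ± 0.13 in DM (edgeR adjusted p = 0.0986, 0.058 and 0.0343). Rrm2, the regulated subunit of ribonucleotide reductase, had 0.41, 0.51 and 0.49 but varied more between mice (SE 0.16) and did not pass in edgeR, whereas DESeq2 and limma-voom called it in Srsf2P95H and in DM. Rrm1, the large subunit of that enzyme, had 0.21, 0.34 and 0.35, and Tk1, the thymidine kinase of S phase, had 0.31, 0.29 and 0.31.

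Both regulators were above WT in each mutant group without a call in edgeR. DESeq2 called Uhrf1 in all 3 groups and E2f1 in Asxl1Tg, and limma-voom called Uhrf1 in Srsf2P95H and DM and E2f1 in Asxl1Tg. Uhrf1, which carries DNA methylation over to the new strand, was at 347, 340.1, 349 and 290.3 CPM in the WT mice, 461, 345, 413 and 482 in Asxl1Tg, 488, 369, 424 and 431 in Srsf2P95H and 465, 445, 349 and 426 in DM. Each Srsf2P95H library lay above WT, DM 3 lay a fraction above WT 3, and Asxl1Tg 2 lay within WT. Its log2 fold changes were 0.36 ± 0.11 in Asxl1Tg, 0.37 ± 0.11 in Srsf2P95H and 0.35 ± 0.11 in DM (edgeR adjusted p = 0.0934, 0.0759 and 0.0613). E2f1, the activator of S-phase genes, was at 44.2, 45.3, 46.6 and 37.9 CPM in the WT mice, 60.8, 48.3, 58.8 and 58 in Asxl1Tg, 54.8, 49.3, 48.4 and 54.5 in Srsf2P95H and 56.8, 51.4, 41.7 and 46.6 in DM. All Asxl1Tg and Srsf2P95H libraries lay above WT, whereas DM 3 was lower than WT 1 and DM 4 lay at the level of WT 3. Fold changes of E2f1 on the log2 scale were 0.38 ± 0.10 in Asxl1Tg, 0.25 ± 0.10 in Srsf2P95H and 0.18 ± 0.10 in DM (edgeR adjusted p = 0.0568, 0.128 and 0.233).

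Groups that did not overlap WT at all were counted over the 43 genes. All 4 libraries lay above all 4 WT libraries for 7 genes in Asxl1Tg (3.7% of all genes tested), 19 in Srsf2P95H (8.33%) and 8 in DM (9.28%). The 8 in DM were Mcm3, Mcm4, Gins3, Pola1, Pole2, Fen1, Tyms and Uhrf1. The 7 in Asxl1Tg were Orc6, Mcm2, Gins3, Pola2, Prim1, Pole2 and E2f1.

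**Figure D3:**
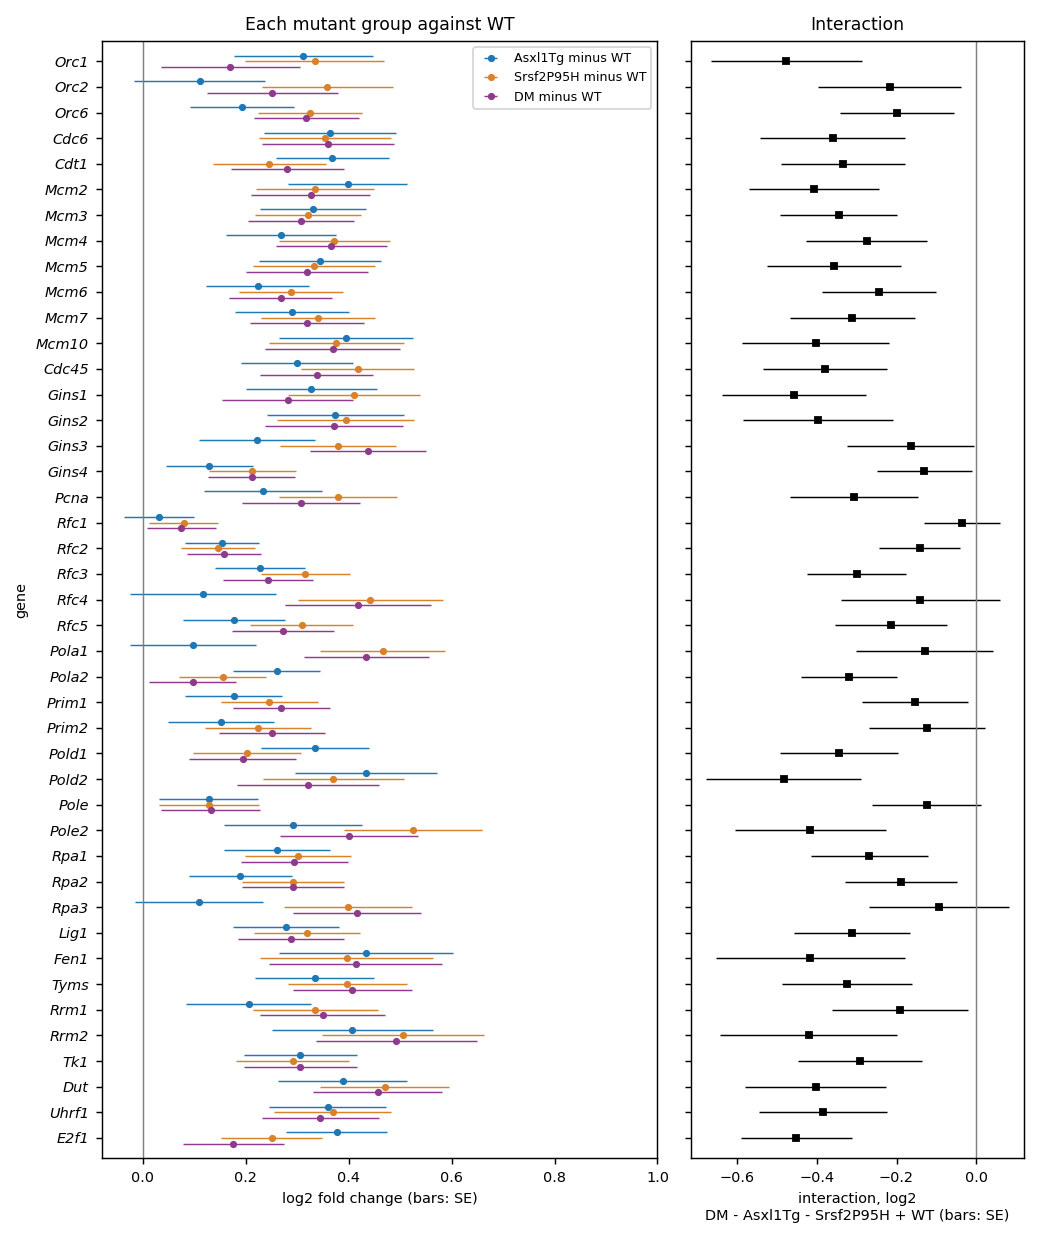
Log2 fold change of each of the 43 genes in the 3 mutant groups against WT (left, colours) and the interaction term (right), each with its SE. All points on the left lie above 0 (0.03 to 0.53) and all points on the right below 0 (-0.48 to -0.04).

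The double mutant was then set against each single mutant and against their sum. DM did not differ detectably from Srsf2P95H in any replication gene: the median log2 difference was -0.01 (range -0.16 to 0.06, median SE 0.11), 0 of 43 passed in edgeR at an adjusted or an unadjusted p under 0.05 (0.246% and 6.48% of all genes did), and DESeq2 and limma-voom also called 0. Against Asxl1Tg the median was 0.03 (range -0.20 to 0.34). There 0 of 43 passed the adjusted test in edgeR (1.08% of all genes), DESeq2 or limma-voom, and 3 were higher at an unadjusted p under 0.05 (10.6% of all genes), namely Pola1 (0.34 ± 0.12), Rpa3 (0.31 ± 0.12) and Rfc4 (0.30 ± 0.14), with edgeR adjusted p of 0.158, 0.207 and 0.276. Pola1 was the 1 gene whose DM libraries all lay above all Asxl1Tg libraries (7.35% of all genes). The 2 single mutants, compared with each other after the data were seen, had the same 3 genes at an unadjusted p under 0.05 and 0 called in edgeR, beside 16.1% and 2.24% of all genes.

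The DM change was smaller than the sum of the 2 single changes for all 43 genes, though no single gene passed the test of that difference. On the log2 scale the sum had a median of 0.60, against 0.31 in DM. The interaction term, DM - Asxl1Tg - Srsf2P95H + WT, had a median of -0.31 over the 43 genes (range -0.48 to -0.04). Over all genes its median was 0.03, with 53.5% of them above 0, and over those at 5 CPM or more it was -0.01. The median SE over the 43 genes was 0.16. In edgeR 0 of the 43 genes and 0% of all genes passed. DESeq2 called 52 genes and limma-voom 0, none of them among the 43. In edgeR 17 of the 43 were lower at an unadjusted p under 0.05 (5.81% of all genes). E2f1 had the smallest p, with -0.45 ± 0.14 (edgeR adjusted p = 0.378), followed by Pola2 with -0.32 ± 0.12 (adjusted p = 0.378). The interaction uses the WT libraries too, and over libraries left out in turn its median ran from -0.38 to -0.24.

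**Figure D4:**
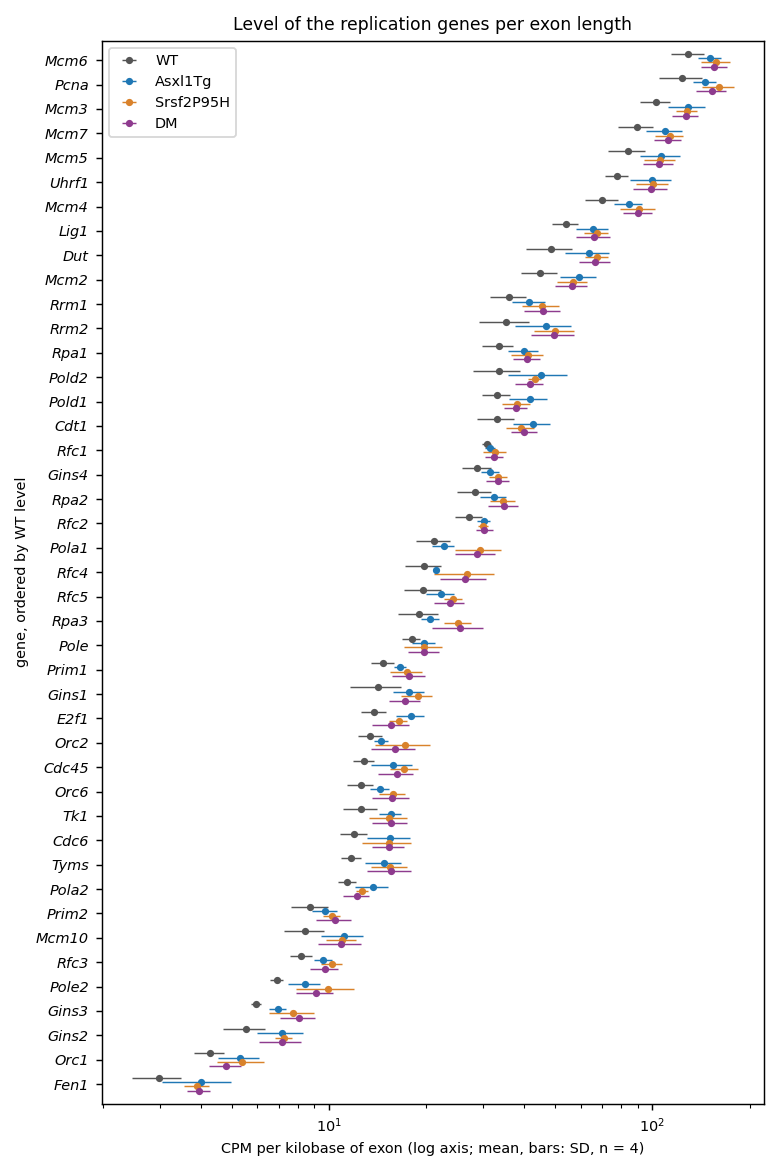
Level of each of the 43 genes per kilobase of exon (log axis) in the 4 genotypes, as mean and SD over 4 mice, ordered by WT. Mcm6 (129) and Pcna (124) lie highest and Fen1 (2.97) lowest in WT. The levels of Fen1 and Gins2 are uncertain, since 84.2% and 67.3% of their exon bases overlap other genes.

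Levels between genes were compared per kilobase of exon. In WT, Mcm6 (129 CPM per kb), Pcna (124), Mcm3 (102), Mcm7 (89.5) and Mcm5 (84.1) led, and Gins2 (5.51), Orc1 (4.27) and Fen1 (2.97) were lowest. Of the exon bases of Fen1 84.2% overlap other genes, and of those of Gins2 67.3%. Their counts, and so their low places in this order, are uncertain. Mcm6 (SD 15.3) and Pcna (SD 19.1) did not differ beyond their spread.

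Other replication genes, G1/S genes and mitotic genes were described from further lists. Of 48 replication genes outside the 43, 40, 45 and 44 were above WT in Asxl1Tg, Srsf2P95H and DM, with medians of 0.17, 0.25 and 0.23. Recql4, a helicase of replication start, rose in Asxl1Tg (0.60 ± 0.15, edgeR adjusted p = 0.0465). In DM 5 rose, among them Rnaseh2a (0.36 ± 0.08, adjusted p = 0.0184), which removes RNA from DNA, and Cdca7 (0.48 ± 0.12, adjusted p = 0.0243). Over all genes 1.12% rose in Asxl1Tg and 4.65% in DM, and 1.32% and 7.79% of those at 5 CPM or more. In Srsf2P95H 0 of the 48 passed in edgeR (0.264% of all genes rose). There 32 were higher at an unadjusted p under 0.05, beside 14.2% of all genes and 26.9% of those at 5 CPM or more.

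Of 26 genes of G1/S control, 18, 19 and 21 were above WT, with medians of 0.17, 0.20 and 0.18. The repressive E2F family member E2f7 rose in Asxl1Tg (0.39 ± 0.10, edgeR adjusted p = 0.0495) and in DM (0.45 ± 0.10, adjusted p = 0.0146), and Rbl2, a pocket protein of quiescent cells, fell in Asxl1Tg (-0.36 ± 0.08, adjusted p = 0.0366). E2f6 rose in DM (0.40 ± 0.08, adjusted p = 0.0117), as did Tfdp1 and Rbl1. Of the 26 genes 1 rose and 1 fell in Asxl1Tg, beside 1.12% and 0.76% of all genes. In DM 4 rose, beside 4.65% of all genes and 7.79% of those at 5 CPM or more. The 24 mitotic genes had medians of 0.05 in Asxl1Tg, 0.25 in Srsf2P95H and 0.25 in DM, with 16, 23 and 22 above WT, and 0, 0 and 2 rose (Mad2l1 and Birc5 in DM). Over all genes 1.12%, 0.264% and 4.65% rose, and 1.32%, 0.486% and 7.79% of those at 5 CPM or more. At an unadjusted p under 0.05, 1, 11 and 11 of the mitotic genes were higher in edgeR. Beside them stood 16.6%, 26.9% and 26.4% of the genes at 5 CPM or more. The 43 replication genes and the mitotic genes had medians of 0.28 and 0.05 in Asxl1Tg and of 0.31 and 0.25 in DM, and the difference between the lists was not tested. Tfdp1, Rbl1, Mad2l1 and Birc5 are named after their values were seen.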

How the data were processed

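RNA-seq counts of LSK cells from 4 WT, 4 Asxl1Tg, 4 Srsf2P95H and 4 DM mice were used. The authors deposited whole-number raw counts per gene symbol in 1 table, without normalization. Per the submitters' processing notes, FastQC, Trimmomatic 0.38, STAR 2.7.0e and HTSeq 0.11.2 were used with mm10. Whether strand was used in counting is not given in the sources used here, nor is the annotation, so reads of overlapping genes cannot be separated. By elimination, the columns whose abbreviated group name matches no title were taken as Asxl1Tg. The design text speaks of 3 DM samples, and the 4 labelled ones were all used.

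Genes were filtered with filterByExpr (minimum count 10), TMM-scaled and fitted with edgeR 4.0.16 (R 4.3.3, robust quasi-likelihood) over all 16 libraries. In each of 6 comparisons the Benjamini-Hochberg adjustment ran over 22749 genes, and calls needed an adjusted p below 0.05. Where nothing else is said, fold changes are log2 with the SE of the fit. Exon lengths came from GENCODE M21 (GRCm38), and promoters from RefSeq (GRCm38.p6), where 7 of the 43 genes had no entry. Limma 3.58.1 (voom with quality weights) and DESeq2 1.42.0 served as alternatives, beside other scalings and filters, a replicate block, the Xist covariate and libraries left out. P-values set the difference between groups against the spread between mice within groups, and the number of mice limits the precision.

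The members and lists were chosen with earlier results of these data known. Values of every library are given for called members, for the 3 members with the smallest p in each comparison and for the member of each role with the highest WT level per kb. A member whose changes went against the sign of the member median in 2 or more of the 3 comparisons with WT would also have been named, and there was none. Genes that are no members are named where a pathway list gene was called, up to 4 each way. Recovery was tested on simulated data for DM versus WT over 22749 genes: edgeR found 3 of 50 genes at a true fold of 1.3, 19 of 50 at 1.5, 39 of 50 at 2 and 48 of 50 at 4, with 6 false calls among 115. The changed genes were drawn at random from the tested genes above a low level, and all genes varied independently. The 43 genes moved together, and their median SE in DM versus WT was 0.11, against 0.235 over all genes. These rates therefore do not describe the 43 genes.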

Additional observations from a re-analysis of the deposited data

Results flagged for a closer look

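In 88 groups of 4 libraries (21 named genes and the summed level of all 43 genes in each genotype), 8 held 1 library far from the other 3. The limit used is passed by chance in about 1 in 20 single groups. The 88 groups are not independent, since these genes moved together in the same libraries. The 8 can therefore not be set against that rate. WT 4 was low for 5 genes. Mcm4 was at 209 CPM there against 264 to 270 in the other WT mice, Mcm6 at 496 against 633 to 650, and Pola2 at 85.2 against 96.7 to 98.2. Lig1 was at 199 CPM in WT 4 against 239 to 244, and Uhrf1 at 290.3 against 340.1 to 349. DM 3 was low for Mcm2, at 325 CPM against 406 to 420, and Asxl1Tg 2 for Gins4, at 38.5 against 43.6 to 43.9. Srsf2P95H 1 was high for Pold2, at 87.8 CPM against 79.5 to 80.7.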

How the results depend on the processing

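The median log2 fold change of the 43 genes against WT stayed above 0 under all 28 alternatives, from 0.21 to 0.35 in Asxl1Tg, 0.21 to 0.46 in Srsf2P95H and 0.21 to 0.38 in DM, and no named result reversed. The number of called genes did not hold. In DM versus WT (6 of 43) it was 1 with library size only (2.42% of all genes rising), 15 with DESeq2 (9.22%), 22 with limma-voom (9.24%), 2 without both WT 4 and Srsf2P95H 2 (2.7%), 0 in the low-Xist libraries (2.44%), 0 with the granulocyte-monocyte progenitor covariate (0.453%), and 0 to 29 with 1 library left out. In Asxl1Tg versus WT (0) DESeq2 gave 10 (5.26%), limma-voom 2 (2.37%), the stricter filter 1 (2.53%) and leaving out 1 library 0 to 19. In Srsf2P95H versus WT (0) DESeq2 gave 20 (9.56%), limma-voom 12 (4.23%), and there were 3 without both WT 4 and Srsf2P95H 2 (0.57%), 10 in the low-Xist libraries (3.34%) and 0 to 18 with 1 library left out. The cause was not tested. Of the 6 genes called in DM, Dut passed under 20 of 28 alternatives, Gins3 under 19, Tyms and Pola1 under 18, Mcm4 under 13 and Rpa3 under 11. In the other 3 comparisons 0 genes were called under every alternative run, and the interaction median was -0.47 in the low-Xist libraries against -0.31. Of the Srsf2P95H mice, the low-Xist libraries include only 1 and 4. The low-Xist subset, the progenitor covariate and the comparison of the single mutants were chosen after seeing the data, and the fit on compared groups only was not run for the interaction, which uses all groups. Correlations over all genes showed no pairing of the mice by replicate number. Same-number correlations ran from -0.293 to 0.295, with 3 of 16 libraries closest to their own number. No label gives a batch, and these correlations cannot show whether libraries of the same number shared one. With the replicate block 0, 6 and 9 of the 43 genes were called in Asxl1Tg, Srsf2P95H and DM versus WT, beside 1.41%, 2.54% and 5.31% of all genes.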
